A study of Mus musculus with 6 samples.

Results

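The genes described here are those of the mouse mitochondrial genome, taken from the deposited table as every gene whose symbol begins with mt-. They number 34 of the 26018 genes listed: 13 mRNAs, 2 ribosomal RNAs and 19 transfer RNAs. The mitochondrial annotation holds 37 genes, and the transfer RNA genes mt-Tf, mt-Ts1 and mt-Td were not analysed here. RNA had been sequenced in bulk from the uterus of 3 Tcf21 d/d conditional knockout females (cKO) and 3 Tcf21 f/f control females, all untreated, weight-matched and 6 weeks old, with 1 library for each animal. TCF21 is a bHLH transcription factor found in mesenchyme, and the study asked which genes lie downstream of it in uterine development. The labels name neither the Cre driver, nor the deleted stretch of Tcf21, nor the genetic background. Normalised counts, which are reads divided by 1 size factor per library, are the unit of level throughout unless another is named.

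Mitochondria keep a small circular genome that is transcribed from both strands into long precursors. The transfer RNAs that lie between most genes are cut out of these precursors, which frees the mRNAs and the ribosomal RNAs, and the messages receive short poly(A) tails. The mRNAs encode core subunits of respiratory complexes I, III and IV and of the ATP synthase, which assemble with subunits made from nuclear genes, and the ribosomal and transfer RNAs serve translation inside the organelle. Mitochondrial transcripts are most abundant in tissues with a high oxidative demand, such as heart, skeletal muscle and liver.

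The libraries held 14584450 to 16579573 reads on genes. Tcf21 itself had 26.0, 0 and 0 normalised counts in cKO replicates 1 to 3, against 341, 152 and 144 in control replicates 1 to 3. Its log2 fold change was -6.03 ± 1.25 (SE of the limma fit, adjusted p = 0.0765), so limma did not call the targeted gene itself. Markers of several tissues differed between libraries. The 14 skeletal muscle markers took 6.68%, 9.47% and 9.12% of reads in the cKO libraries, against 3.26%, 6.32% and 4.43% in the controls, and these groups did not overlap. Limma called none of the 13 tested (1.16% of all genes), edgeR called none (0.926%) and DESeq2 called 7 higher (1.75%). Of the 13, 11 had an unadjusted limma p under 0.05 (13.7% of all genes). The 7 smooth muscle markers took 0.460% to 0.647% in cKO and 0.914% to 1.39% in control libraries, and limma called 6 of them lower (0.889% of all genes). Heart muscle markers held at most 0.0347% of reads in cKO and 0.0311% in control libraries, and these overlapped. The 4 brown fat markers together took 0.0188%, 0.0194% and 0.0211% in cKO libraries, against 0.0112%, 0.0111% and 0.0143% in controls. Most of these reads were on Cox7a1, which muscle also expresses, whereas Ucp1, which defines brown fat, had at most 0.929 normalised counts in cKO and 4.88 in control libraries. Markers of uterine epithelium and mesenchyme were scarce. Uterine epithelium markers (6 genes) held at most 0.00437% of reads in cKO and 0.0326% in control libraries. Among them Foxa2 was at 0 in all 3 cKO libraries and in control replicate 3. Uterine mesenchyme markers (6 genes) held 0.0145%, 0.00874% and 0.00830% in cKO libraries, against 0.0414%, 0.0374% and 0.0233% in controls, and these groups did not overlap. Of the 6, limma called none (1.16% of all genes), 5 had an unadjusted limma p under 0.05 (13.7%), and DESeq2 called 6 lower (3.58%). Control replicate 1 stood apart from the other 5 libraries, because 12 liver markers took 1.57% of its reads, against at most 0.0107% elsewhere. Nuclear RNA markers (4 genes) were lowest there too, at 0.229%, with 0.430%, 0.621% and 0.537% in cKO libraries and 0.409% and 0.512% in the other controls. Autonomic neuron markers (7 genes) took 0.0227% of reads in control replicate 3, against at most 0.00359% in any other library. Because of the liver markers, the main comparisons below are given with and without control replicate 1. The part of tissue admixture in the values of mitochondrial genes was not tested, and in bulk RNA fewer cells of a type and less RNA per cell cannot be told apart.

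The transfer RNAs below are the 4 with the most reads and mt-Tw, the gene with the smallest p among the mitochondrial genes. They are written as DNA from GENCODE vM21 on build GRCm38, 5′ to 3′ on their own strand, with the anticodon in capitals. Those for proline (mt-Tp, MT:15356-15422), cysteine (mt-Tc, MT:5192-5257) and glutamate (mt-Te, MT:14071-14139) lie on the minus strand. Those for leucine (mt-Tl2, MT:11671-11741) and tryptophan (mt-Tw, MT:4950-5016) lie on the plus strand.
mt-Tp: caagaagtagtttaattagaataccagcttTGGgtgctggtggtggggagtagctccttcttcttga
mt-Tc: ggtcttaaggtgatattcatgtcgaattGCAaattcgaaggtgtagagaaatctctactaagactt
mt-Te: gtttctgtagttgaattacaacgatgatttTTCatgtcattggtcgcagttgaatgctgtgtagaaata
mt-Tl2: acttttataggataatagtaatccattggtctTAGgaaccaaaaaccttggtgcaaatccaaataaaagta
mt-Tw: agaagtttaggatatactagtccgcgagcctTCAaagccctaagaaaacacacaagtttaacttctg

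Genes along a long stretch of the mitochondrial genome have near-identical copies on nuclear chromosome 1, and 2 short windows show how little separates them. From the first to the last matching base, the stretch runs over MT:6390-11042, or 4653 bases. Its copies are 7 pseudogenes annotated on the minus strand of chromosome 1 (GRCm38, chr1:24611535-24616197). Only annotated transcripts were compared, so the bases between the pseudogenes were not, and no copy of mt-Atp8 was found. The windows compare mt-Co1 at MT:6390-6413 with the pseudogene Gm29216 (chr1:24616165-24616188), and mt-Nd3 at MT:9459-9481 with Gm28438 (chr1:24613097-24613119). The differing base is in capitals. It is A1066T in mt-Co1 and T3C in mt-Nd3, counted from 1 at the first base of the gene, with the mitochondrial base first.
mt-Co1: ggaAttgttttatccaactcatcc
Gm29216: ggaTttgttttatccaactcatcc
mt-Nd3: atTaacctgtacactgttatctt
Gm28438: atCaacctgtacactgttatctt
These are the only differences found in the 483 and 345 bases that the pairs share. The pairs of mt-Co2 with Gm28661 (681 bases), mt-Atp6 with Gm10925 (678), mt-Co3 with Gm28437 (783), mt-Nd4l with Gm10222 (294) and mt-Nd4 with Gm28439 (876) were identical. Less similar copies lie on chromosome 2 for mt-Co1 (Gm13340, all 1545 bases, 97.6% identical), mt-Co2 (Gm13341, 684 bases, 95.9%) and a part of mt-Nd2 (Gm13339, 510 bases, 96.7%), and on chromosome 13 for a part of mt-Nd5 (Gm4076, 954 bases, 95.2%). The labels do not say how reads that match several places were counted.

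Mitochondrial genes took a large and variable share of each library. Their share of reads was 13.7%, 8.43% and 10.2% in cKO replicates 1 to 3, against 23.8%, 8.10% and 10.3% in control replicates 1 to 3. Control replicate 1 was the highest of the 6, control replicate 2 the lowest, and the groups overlapped. The mean share was 10.8% ± 2.67 in cKO and 14.1% ± 8.52 in control libraries (SD, n = 3 each), a difference of -3.31 points (exact permutation test, two-sided, p = 0.8, where 0.1 is the smallest p that 3 against 3 allows). Without control replicate 1 the difference turned to 1.57 points (exact permutation test, p = 0.6, smallest possible 0.2). Counting error was small beside this spread, since the widest 95% Wilson interval of a library's share was 0.0437 points.

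The 3 classes of transcript differed in how they varied. The mRNAs held 13.3%, 8.08% and 9.93% of all reads in cKO and 23.3%, 7.92% and 10.04% in control libraries. The ribosomal RNAs held 0.322%, 0.337% and 0.285% in cKO and 0.456%, 0.160% and 0.277% in control libraries. The transfer RNAs held 0.0363%, 0.0170% and 0.0224% in cKO and 0.0716%, 0.0188% and 0.0230% in control libraries. For the mRNAs and transfer RNAs, both control replicate 1 and cKO replicate 1 were high, whereas the ribosomal RNA share was almost level over the cKO libraries. The ribosomal RNA share differed by 0.0167 points between groups (exact permutation test, p = 0.8). Without control replicate 1, its 3 cKO values lay above both remaining controls, by 0.0960 points on average, with p = 0.2, the smallest that 3 against 2 allows in the exact permutation test.

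**Figure D1:**
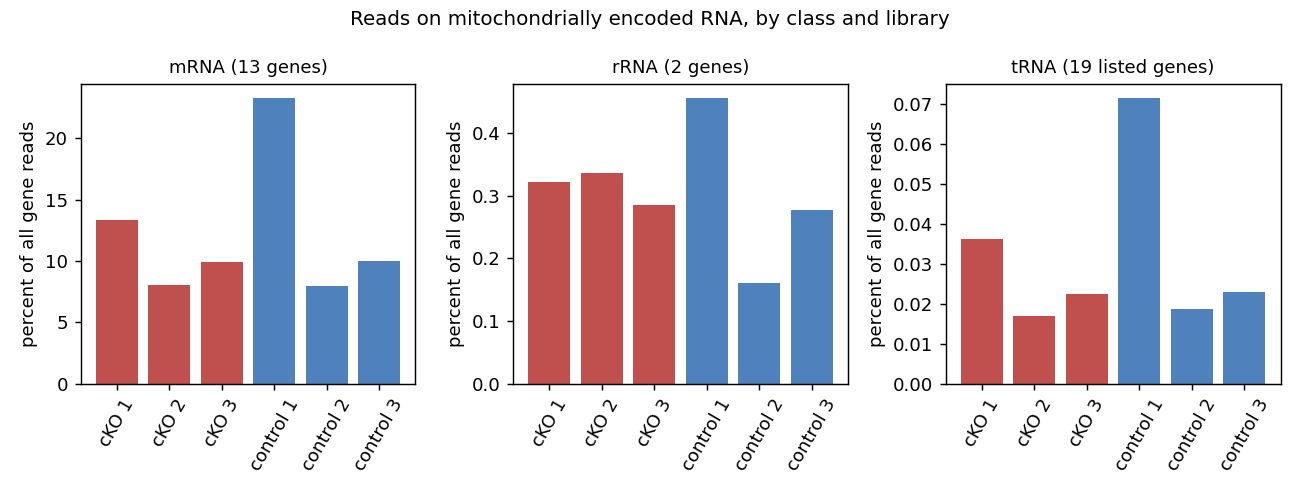
Percent of all gene reads on mitochondrial mRNAs, rRNAs and tRNAs, 1 bar per library, cKO replicates 1 to 3 left of control replicates 1 to 3, each panel with its own axis from 0. Control replicate 1 is the highest library in every panel, at 23.3%, 0.456% and 0.0716%.

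No mitochondrial gene passed the test between genotypes. Of the 34 genes, 25 had enough reads to be tested, namely all 13 mRNAs, both ribosomal RNAs and 10 of the 19 transfer RNAs, with limma on log2(normalised count + 1) and Benjamini-Hochberg adjustment over 16314 genes. None was called at an adjusted p under 0.05, where 1.16% of all genes were called (0.276% higher and 0.889% lower in cKO). With edgeR (0.926% of all genes called) and DESeq2 (1.75% called higher and 3.58% lower) none was called either. DESeq2 gave no adjusted p for mt-Atp6. At an unadjusted p under 0.05 limma found 1 of 25 genes and DESeq2 found 2, against 13.7% and 15.1% of all genes. The log2 fold change of cKO over control was below 0 in 20 of 25 genes (49.7% of all genes), with a median of -0.25 (0.0020 for all genes). In edgeR and DESeq2 the median was -0.57 and -0.56, with 23 of 25 genes below 0 in each. Control replicate 1 was the highest of the 6 libraries for all 25 tested genes, as it was for 21.3% of all genes. Without it, the log2 fold change was above 0 in 19 of 25 genes (50.4% of all genes), the median was 0.36, and again none was called (2.72% of all genes). In that comparison 6 of 25 had an unadjusted limma p under 0.05 (17.9% of all genes).

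**Figure D2:**
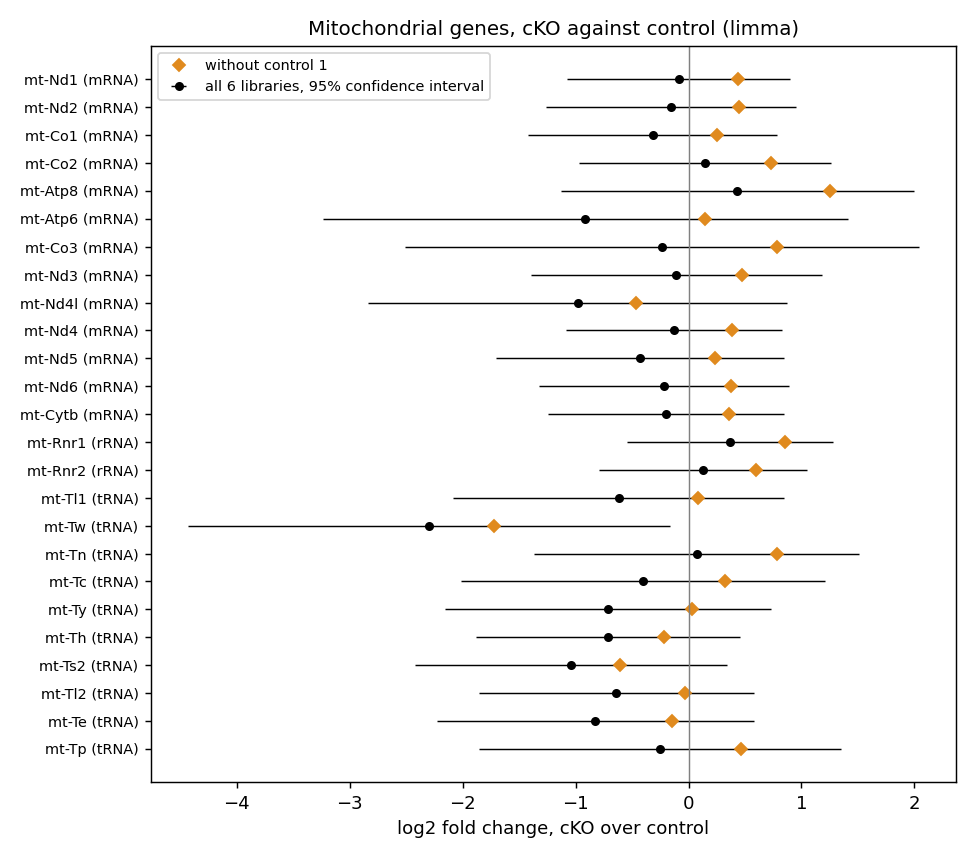
Log2 fold change of cKO over control for each of the 25 tested mitochondrial genes, from the limma fit. Black points with 95% confidence intervals use all 6 libraries and orange diamonds leave out control replicate 1; the median moves to 0.36 without that library, against -0.25 with it.

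The complex I messages encode the membrane arm of the enzyme that takes electrons from NADH. mt-Nd1 (MT:2751-3707, plus strand) had 290417, 189370 and 233309 normalised counts in cKO libraries, against 514369, 154597 and 193764 in controls. mt-Nd2 had 170836, 108280 and 130012 in cKO libraries, against 344054, 89948 and 107981 in controls. For both, control replicate 1 was highest and control replicate 2 lowest, so the cKO values lay within the span of the controls. Their log2 fold changes were -0.088 ± 0.44 and -0.16 ± 0.48 (SE of the limma fit, adjusted p = 0.957 and 0.925), and 0.44 for each without control replicate 1 (limma, adjusted p = 0.409 and 0.386). mt-Nd4 had 227458, 169141 and 183731 in cKO libraries, against 429773, 128601 and 168155 in controls. mt-Nd5 had 150815, 74873 and 108224 in cKO libraries, against 359668, 89599 and 92353 in controls. These followed the same order at the top, with control replicate 1 first and cKO replicate 1 next, and gave log2 fold changes of -0.13 ± 0.42 and -0.43 ± 0.55 in limma (adjusted p = 0.929 and 0.798). They were 0.38 and 0.23 without control replicate 1 (limma, adjusted p = 0.442 and 0.723).

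The 2 short complex I messages had far fewer counts. mt-Nd3 had 609, 355 and 483 normalised counts in cKO libraries, against 1141, 244 and 469 in controls, and its groups overlapped. Its log2 fold change was -0.11 ± 0.54, and 0.48 without control replicate 1 (limma, adjusted p = 0.958 and 0.482). mt-Nd4l had 636, 176 and 470 in cKO libraries, against 1514, 952 and 281 in controls (log2 fold change -0.98 ± 0.76, limma, adjusted p = 0.645, the lowest fold change among the mRNAs). It was the 1 mRNA still below 0 without control replicate 1, at -0.47 (limma, adjusted p = 0.807).

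mt-Nd6 is the only mRNA on the minus strand (MT:13552-14070), so it derives from the other precursor. It had 57285, 37930 and 47899 normalised counts in cKO libraries, against 124485, 31421 and 41840 in controls (log2 fold change -0.22 ± 0.48, limma, adjusted p = 0.891, and 0.38 without control replicate 1, adjusted p = 0.444). Its share of mitochondrial mRNA reads was nearly constant, at 2.79%, 3.01% and 2.99% in cKO libraries, against 3.00%, 2.72% and 2.99% in controls. The mean shares were 2.93% ± 0.122 in cKO and 2.90% ± 0.161 in control libraries, a difference of 0.0291 points (SD, n = 3 each, exact permutation test, p = 0.6), and 0.0796 points without control replicate 1. With the genes that have a near-identical nuclear copy left out of the total, the difference was -0.338 points. Whether reads were counted by strand is not given, so reads of the opposite strand at this gene cannot be told apart from its own.

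mt-Cytb encodes cytochrome b, the mitochondrial subunit of complex III. It had 387192, 263477 and 315183 normalised counts in cKO libraries, against 792824, 217729 and 281469 in controls (log2 fold change -0.20 ± 0.46, limma, adjusted p = 0.894, and 0.36 without control replicate 1, adjusted p = 0.507). It took 18.4% to 20.02% of mitochondrial reads in every library, so its level followed the whole pool.

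mt-Co1, mt-Co2 and mt-Co3 encode the catalytic core of complex IV, cytochrome c oxidase. mt-Co1 (MT:5328-6872) had 751048, 406239 and 565586 normalised counts in cKO libraries, against 1514757, 435395 and 504191 in controls. It held the largest number of mitochondrial reads in each library, at 35.6%, 30.9% and 34.3% in cKO and 35.7%, 36.8% and 34.9% in control libraries, and cKO replicate 2 was the lowest of these shares. mt-Co2 had 6377, 5519 and 5264 in cKO libraries, against 11534, 2858 and 4142 in controls, so all 3 cKO values lay between control replicate 1 and the other controls. mt-Co3 had 5098, 2980 and 5936 in cKO libraries, against 21683, 2083 and 3261 in controls. The log2 fold changes of the 3 genes were -0.32 ± 0.49, 0.15 ± 0.47 and -0.24 ± 0.92 in limma (adjusted p = 0.835, 0.930 and 0.944). Without control replicate 1, mt-Co1 stood at 0.25 (limma, adjusted p = 0.716), mt-Co2 at 0.73 (limma, adjusted p = 0.0851) and mt-Co3 at 0.78 (limma, adjusted p = 0.245).

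mt-Atp8 and mt-Atp6 encode the mitochondrial subunits of the ATP synthase and share 43 bases, MT:7927-7969, read in different frames. In this stretch the first capitals are the start codon of mt-Atp6 and the last the stop codon of mt-Atp8.
mt-Atp8/mt-Atp6 overlap: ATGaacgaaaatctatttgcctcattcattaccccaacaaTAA
mt-Atp6 had 4990, 2465 and 3900 normalised counts in cKO libraries, against 29783, 3199 and 3358 in controls. mt-Atp8 had 41.8, 70.2 and 33.1 in cKO libraries, against 107, 18.9 and 18.7 in controls. Control replicate 1 held 9.08 times the mean of the other controls for mt-Atp6, 8.12 times for mt-Co3 and 5.71 times for mt-Atp8, against 2.46 to 3.95 times for the other 10 mRNAs. The log2 fold changes of mt-Atp6 and mt-Atp8 were -0.91 ± 0.94 and 0.43 ± 0.69 in limma (adjusted p = 0.743 and 0.843). They were 0.15 and 1.25 without control replicate 1 (limma, adjusted p = 0.829 and 0.260). In edgeR with all libraries they were -1.68 and 0.014, and in DESeq2 -1.68 and 0.013.

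Across the 13 mRNAs the log2 fold change was below 0 in 11 and above 0 in 2 with all libraries, and above 0 in 12 and below 0 in 1 without control replicate 1. The medians were -0.20 and 0.38. The coefficient of variation of normalised counts had a median of 26.3% over the cKO libraries and 75.8% over the controls, and SEs on the log2 scale ran from 0.42 to 0.94.

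Per base of gene, the mRNAs fell into separate ranges according to the stretch copied on chromosome 1. The 6 mRNAs that lie wholly inside it (mt-Co2, mt-Atp8, mt-Atp6, mt-Co3, mt-Nd3 and mt-Nd4l) had 0.0916 to 43.7 normalised counts per base over all libraries. The 5 mRNAs wholly outside it (mt-Nd1, mt-Nd2, mt-Nd5, mt-Nd6 and mt-Cytb) had 41.0 to 693, and mt-Co1 and mt-Nd4, which have 31.3% and 63.6% of their bases inside, had 93.3 to 980. Within each library the highest of the 6 was below the lowest of the other 7, so the ranges did not meet in any library. Library medians of the 6 genes ran from 2.32 to 10.98, and those of the 5 outside from 86.7 to 331. These mRNAs are cut from shared precursors. The part of reads that match a nuclear copy was not tested. The levels of the 6 genes other than mt-Atp8, and of mt-Co1, mt-Nd4, mt-Nd2 and mt-Nd5, are uncertain, since each has such a copy in whole or in part. For mt-Atp8 no copy was found, but only annotated transcripts were searched, so its level is uncertain too.

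**Figure D3:**
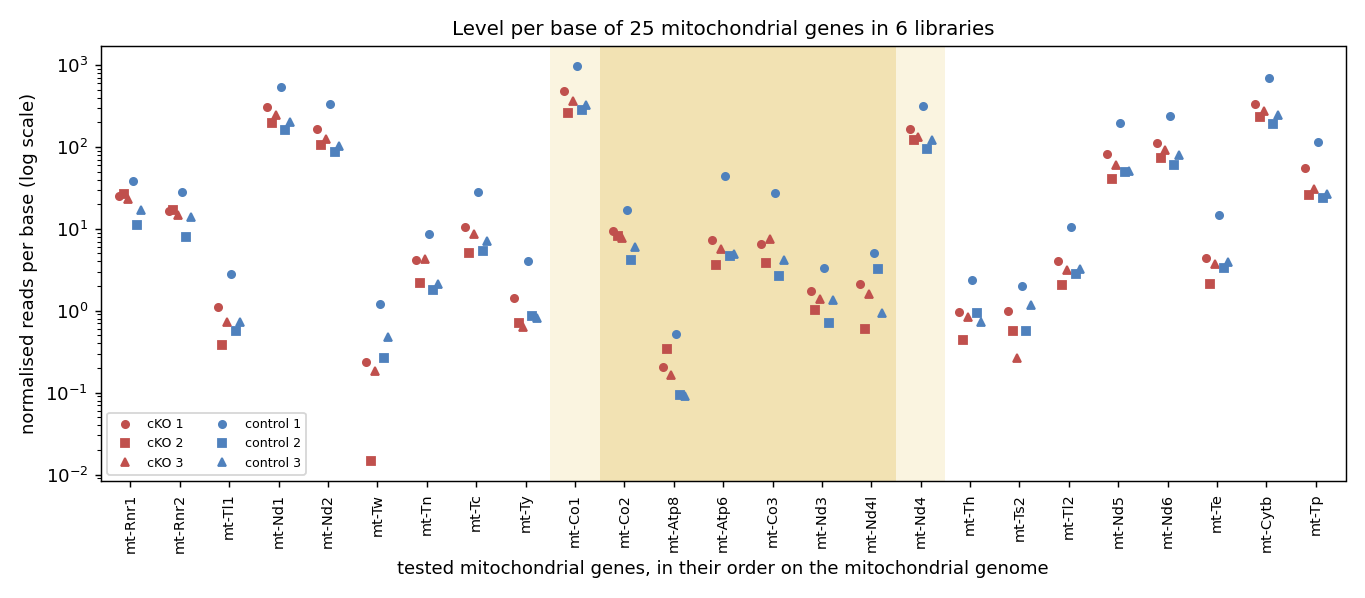
Normalised counts per base (log axis) along the order of the mitochondrial genes, red for the 3 cKO and blue for the 3 control libraries. Dark shading marks genes wholly inside the stretch copied on chromosome 1 and pale shading mt-Co1 and mt-Nd4, which are partly inside; shaded mRNAs other than these reach 43.7 at most, and the remaining mRNAs start at 41.0.

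The nuclear copies themselves drew reads. The 7 pseudogenes held 0.123%, 0.0633% and 0.0844% of all reads in cKO libraries, against 0.262%, 0.0550% and 0.0878% in controls, which put the 6 libraries in the same order as the share of mitochondrial genes did. The 6 mitochondrial mRNAs inside the stretch held 0.842%, 0.879% and 0.975% of mitochondrial reads in cKO libraries, against 1.55%, 0.791% and 0.799% in controls. mt-Atp6 had 0.994, 0.886 and 1.04 times the normalised counts of Gm10925 in cKO libraries, against 1.87, 1.45 and 1.10 times in controls. mt-Co2 had 2.11, 2.95 and 2.21 times those of Gm28661 in cKO libraries, against 1.99, 2.17 and 2.14 times in controls. Among the other identical pairs, mt-Co3 had 1.04 to 2.11 times the counts of Gm28437 over the 6 libraries. mt-Nd4l had 0.766 to 3.78 times those of Gm10222. mt-Nd3 had fewer counts than Gm28438, at 0.381, 0.396 and 0.430 times in cKO and 0.356, 0.288 and 0.405 times in control libraries. By contrast the chromosome 1 copies of mt-Co1 and mt-Nd4 cover only a part of the gene. Over the 6 libraries mt-Co1 had 226 to 484 times the counts of Gm29216, and mt-Nd4 had 122 to 262 times those of Gm28439. None of the 7 pseudogenes was called by limma (1.16% of all genes). Their log2 fold changes were -0.34 to -0.044 with all libraries and 0.24 to 0.58 without control replicate 1.

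**Figure D4:**
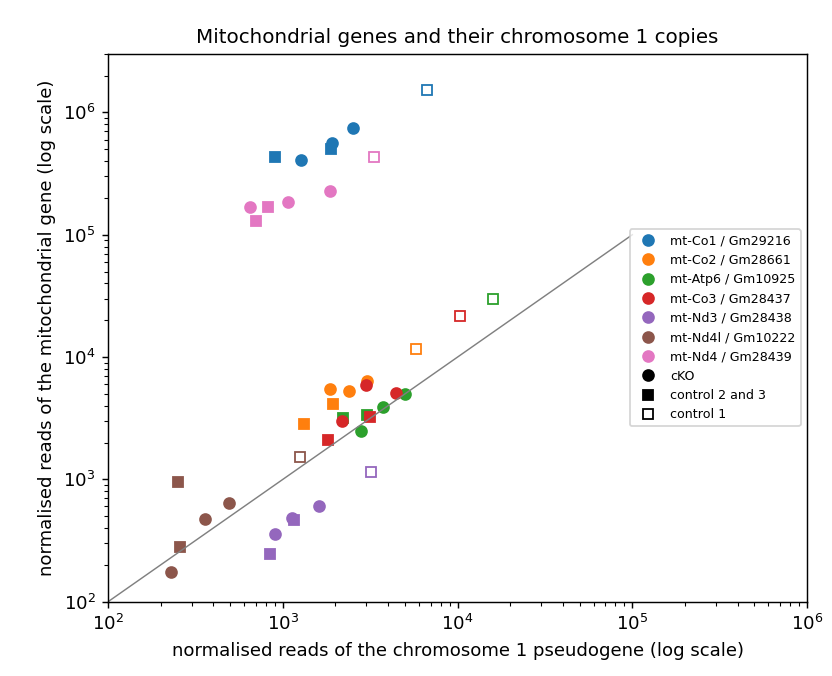
Normalised counts of mitochondrial genes plotted against those of their chromosome 1 pseudogenes, both on log axes, with circles for cKO libraries, squares for controls, an open square for control replicate 1 and a grey line at equality. mt-Atp6 lies near the line, at 0.886 to 1.87 times its copy, and mt-Nd3 below it.

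The ribosomal RNAs form the core of the mitochondrial ribosome. mt-Rnr1, the 12S RNA (MT:70-1024), had 23769, 25420 and 22393 normalised counts in cKO libraries, against 36410, 10624 and 16353 in controls. mt-Rnr2, the 16S RNA (MT:1094-2675), had 25787, 27122 and 23560 in cKO libraries, against 44713, 12728 and 22335 in controls. The cKO values of both genes lay close together, with a median coefficient of variation of 6.71%, against 62.9% over the controls. Their log2 fold changes were 0.37 ± 0.40 and 0.12 ± 0.40 in limma (adjusted p = 0.752 and 0.929). Without control replicate 1, all 3 cKO values exceeded both controls and the log2 fold changes were 0.85 and 0.59 (limma, adjusted p = 0.0710 and 0.235). In that comparison cKO libraries lay above control replicates 2 and 3 in 7 of the 25 tested genes (17.1% of all genes) and below them in 1 (18.3%).

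Ribosomal RNA took 2.35%, 3.99% and 2.79% of mitochondrial reads in cKO libraries, against 1.91%, 1.97% and 2.68% in controls. cKO replicate 1 lay below control replicate 3, so the groups overlapped, and the difference of 0.853 points had an exact permutation p of 0.2 (0.715 points without control replicate 1). The balance between the 2 ribosomal RNAs did not overlap between groups. The log2 ratio of mt-Rnr1 to mt-Rnr2 reads was -0.12, -0.094 and -0.073 in cKO libraries, against -0.30, -0.26 and -0.45 in controls. This measure was chosen after its values were seen, as 1 of 32 library measures of which 7 kept the groups apart. Its difference of 0.24, or 0.26 without control replicate 1, had an exact permutation p of 0.1, the smallest possible with 3 against 3, and a Benjamini-Hochberg adjusted p of 0.457 over the 32 measures.

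The transfer RNAs had few reads, 6020, 2721 and 3262 in all in cKO libraries, against 10445, 3052 and 3616 in controls. They took 0.265%, 0.202% and 0.218% of mitochondrial reads in cKO and 0.300%, 0.232% and 0.223% in control libraries (difference -0.0232 points, exact permutation test, p = 0.5, and 0.00108 points without control replicate 1). Of the 10 tested, 9 had a log2 fold change below 0 and 1 above 0, with a median of -0.68, but without control replicate 1 the signs split into 5 and 5. The 9 not tested had at most 15 reads in any library and 4 to 27 reads over all 6.

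Most transfer RNA reads were assigned to the minus strand genes, above all mt-Tp. As for mt-Nd6, counting by strand is not stated, so opposite-strand reads at these genes cannot be told apart from their own. mt-Tp had 3681, 1720 and 2062 normalised counts in cKO libraries, against 7613, 1611 and 1807 in controls (log2 fold change -0.25 ± 0.66, limma, adjusted p = 0.908, and 0.46 without control replicate 1, adjusted p = 0.469). It accounted for 65.8%, 64.8% and 57.2% of transfer RNA reads in cKO and 59.8%, 58.7% and 56.2% in control libraries. mt-Tc had 689, 334 and 568 normalised counts in cKO libraries, against 1846, 352 and 465 in controls. mt-Te had 307, 144 and 260 in cKO libraries, against 1021, 229 and 274 in controls. For all 3, control replicate 1 was the only control above the cKO range. The log2 fold changes of mt-Tc and mt-Te were -0.40 and -0.82, and 0.33 and -0.15 without control replicate 1 (limma, adjusted p = 0.851, 0.610, 0.625 and 0.861). mt-Tn, for asparagine, had 292, 156 and 304 in cKO libraries, against 615, 128 and 151 in controls, and was the 1 transfer RNA with a log2 fold change above 0, at 0.073 ± 0.61 (limma, adjusted p = 0.974, and 0.78 without control replicate 1, adjusted p = 0.245). The 7 minus strand transfer RNAs listed held 90.7%, 90.6% and 89.8% of transfer RNA reads in cKO libraries, against 89.4%, 86.9% and 85.8% in controls. These shares did not overlap, by a difference of 3.00 points (4.005 without control replicate 1) with an exact permutation p of 0.1, adjusted p 0.457 over the same 32 measures, and were also chosen after their values were seen.

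On the plus strand, mt-Tl2 had 284, 144 and 222 normalised counts in cKO libraries, against 757, 200 and 229 in controls (log2 fold change -0.64, and -0.032 without control replicate 1, limma, adjusted p = 0.656 and 0.974). mt-Tw, the tryptophan transfer RNA, had 15.8, 0.975 and 12.2 in cKO libraries, against 81.7, 18.0 and 32.0 in controls, which rests on 17, 1 and 11 reads and on 67, 20 and 36 reads. It was the 1 tested gene of 25 whose groups did not overlap, where 19.6% of all genes kept the groups apart. Its log2 fold change was -2.30 ± 0.95 with a 95% confidence interval of -4.43 to -0.16 (limma, unadjusted p = 0.0378, adjusted p = 0.327), and -1.72 without control replicate 1 (limma, adjusted p = 0.449). Without cKO replicate 2, which had 1 read, it was -1.33 (limma, adjusted p = 0.689). The authors' deposited table gives it a log2 fold change of -2.18 with an adjusted p of 0.188, the lowest among the mitochondrial genes there. mt-Tl1, mt-Ty, mt-Th and mt-Ts2 had at most 94.8 normalised counts in any cKO library and 268 in any control library, with log2 fold changes of -0.62, -0.71, -0.72 and -1.04 (limma, adjusted p = 0.740, 0.685, 0.601 and 0.507). They stood at 0.085, 0.031, -0.21 and -0.61 without control replicate 1.

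Mitochondrial messages were then set against the nuclear messages of the same enzymes, 74 genes of complexes I, III, IV and V. The nuclear subunits took 2.19%, 2.24% and 2.43% of reads in cKO libraries, against 1.61%, 1.73% and 2.01% in controls. These groups did not overlap (difference 0.505 points, exact permutation test, p = 0.1, the smallest possible, and 0.417 points without control replicate 1). The share was not a planned measure, and was 1 of the 7 among 32 library measures that kept the groups apart. Its Benjamini-Hochberg adjusted p over the 32 permutation tests was 0.457. The log2 ratio of mitochondrial to nuclear messages was 2.60, 1.85 and 2.03 in cKO libraries, against 3.86, 2.19 and 2.32 in controls. The mean difference was -0.63 (exact permutation test, p = 0.4), and -0.10 without control replicate 1 (p = 0.8, exact permutation test). The ratios of the groups overlapped both with and without that library. By complex the difference was -0.57 for I, -0.60 for III and -0.73 for IV (exact permutation p = 0.4, 0.5 and 0.3). These differences were -0.085, -0.053 and -0.25 without control replicate 1. For complex V the ratio was -4.34, -5.38 and -4.97 in cKO libraries, against -1.40, -4.75 and -4.69 in controls. Its difference was -1.28 (exact permutation test, p = 0.4), and -0.18 without control replicate 1. Both mitochondrial genes of complex V lie inside the copied stretch.

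No nuclear subunit of these complexes was called by limma (1.16% of all genes) or edgeR (0.926%). An unadjusted limma p under 0.05 was found for 32 of 74 (13.7% of all genes). DESeq2 called 9 higher (1.75% of all genes) and 1 lower (3.58%). Of the 74, 71 had a log2 fold change above 0 (50.3% of all genes), with a median of 0.40. Cox6a2, the striated muscle form of a complex IV subunit, averaged 15140 ± 2400 normalised counts in cKO and 7945 ± 936 in control libraries (SD, n = 3 each, log2 fold change 0.92 ± 0.19, limma, adjusted p = 0.0636). Cox7a1, also a muscle form, averaged 3086 ± 274 in cKO and 1846 ± 219 in control libraries (log2 fold change 0.74 ± 0.16, limma, adjusted p = 0.0722). Cox8b stood at 0.74 (limma, adjusted p = 0.106). Without control replicate 1, limma called 6 of the 74 higher (0.685% of all genes), among them these 3 with adjusted p of 0.0316, 0.0443 and 0.0448. Other genes named by their p within a complex were Ndufs7 and Ndufa10 of complex I (0.59 each on the log2 scale), Uqcrc1 of complex III (0.56) and Atp5g1 and Atp5e of the ATP synthase (0.67 and 0.70), with limma adjusted p of 0.0967 to 0.195. The skeletal muscle markers, given above, were also higher in every cKO library than in any control, and their part in the nuclear values was not tested.

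**Figure D5:**
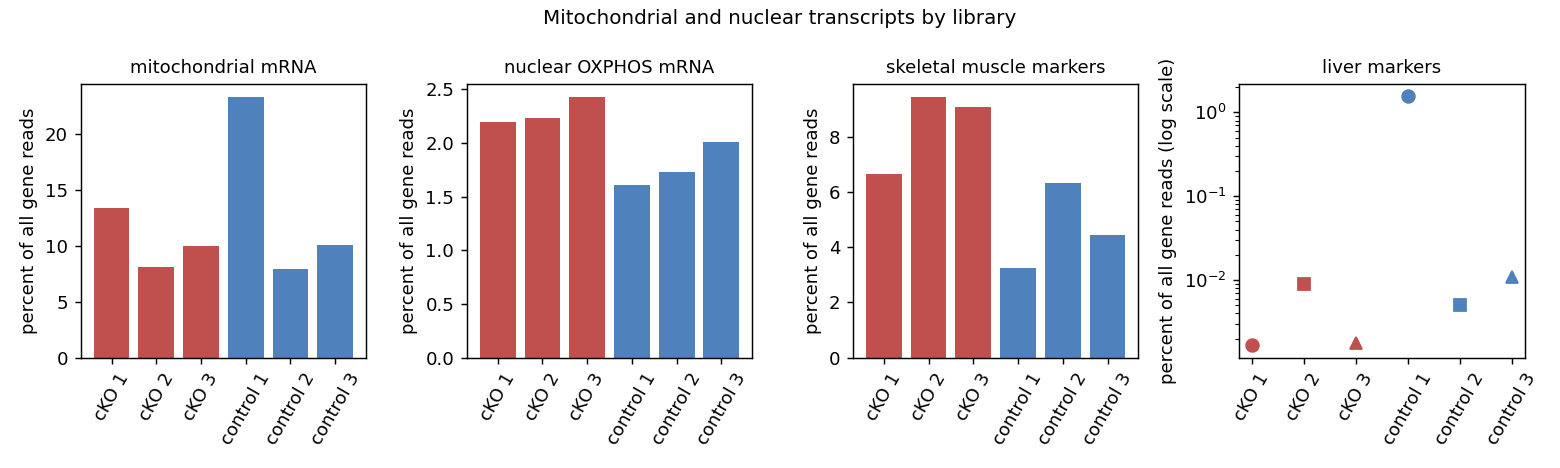
Percent of gene reads on mitochondrial mRNAs, nuclear subunits of complexes I, III, IV and V, skeletal muscle markers (bars) and liver markers (log axis) in cKO replicates 1 to 3, left, and control replicates 1 to 3. Nuclear subunits (2.19% to 2.43% in cKO, 1.61% to 2.01% in controls) and muscle markers separate the groups, whereas mitochondrial mRNAs and liver markers are highest in control replicate 1.

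Nuclear genes that make and handle mitochondrial RNA were described from lists chosen with earlier results of these data known. Of 18 genes of mitochondrial transcription and DNA maintenance, limma called none (1.16% of all genes) and edgeR none (0.926%). DESeq2 called none either (1.75% of all genes higher and 3.58% lower). None had an unadjusted limma p under 0.05 (13.7% of all genes). Polrmt, the mitochondrial RNA polymerase, averaged 544 ± 26.8 normalised counts in cKO and 481 ± 101 in control libraries (log2 fold change 0.20 ± 0.19, limma, adjusted p = 0.713, and 0.36 without control replicate 1). Tfam, which packages mitochondrial DNA and starts transcription, averaged 527 ± 63.0 in cKO and 500 ± 58.4 in control libraries (0.075 ± 0.17, limma, adjusted p = 0.895, and 0.17 without control replicate 1). Mterf2 had the smallest p of the list (0.53, limma, adjusted p = 0.424).

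Of 22 RNA processing and stability genes limma called none (1.16% of all genes), edgeR none (0.926%) and DESeq2 1 lower (3.58%). Of these, 3 had an unadjusted limma p under 0.05, a share close to the 13.7% of all genes. Rexo2, a mitochondrial oligoribonuclease, averaged 1376 ± 31.0 in cKO and 2184 ± 358 in control libraries (log2 fold change -0.65 ± 0.17, limma, adjusted p = 0.117). Without control replicate 1 it stood at -0.53 (limma, adjusted p = 0.110). Its groups did not overlap, where 19.6% of all genes kept the groups apart. Lrpprc, which binds and stabilises mitochondrial mRNAs, averaged 757 ± 176 in cKO and 849 ± 126 in control libraries (-0.18 ± 0.20, limma, adjusted p = 0.766, and -0.067 without control replicate 1). Fastk and Tbrg4 had log2 fold changes of 0.44 and 0.41 (limma, adjusted p = 0.258 and 0.296), and their groups did not overlap either.

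Of 77 mitochondrial ribosome genes limma called none (1.16% of all genes), edgeR none (0.926%) and DESeq2 none (1.75% higher and 3.58% lower). Among them 9 had an unadjusted limma p under 0.05 (13.7% of all genes). A log2 fold change above 0 was found in 67 (50.3% of all genes), with a median of 0.19. Mrpl42 and Mrpl51 stood at 0.54 and 0.45 (limma, adjusted p = 0.173 and 0.246), and Mrps10 at 0.66 (0.164, or 0.0388 without control replicate 1), Mrps10 with stretches near-identical to 296 other genes. Of 17 mitochondrial aminoacyl-tRNA synthetases the 3 tools called none, against the same shares of all genes. None had an unadjusted limma p under 0.05 (13.7% of all genes), and the median log2 fold change was -0.0017.

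Of 8 regulators of mitochondrial biogenesis limma called none (1.16% of all genes), edgeR none (0.926%) and DESeq2 1 higher (1.75%). Of these, 3 had an unadjusted limma p under 0.05 (13.7% of all genes). Perm1, a muscle regulator, averaged 964 ± 159 in cKO and 526 ± 147 in control libraries (log2 fold change 0.90 ± 0.24, limma, adjusted p = 0.137, and 0.65 without control replicate 1, adjusted p = 0.108). Esrrg, an orphan nuclear receptor, averaged 107 ± 32.2 in cKO and 47.6 ± 17.0 in control libraries (1.17 ± 0.41, limma, adjusted p = 0.252, and 1.40 without control replicate 1, adjusted p = 0.131). Ppargc1a, a coactivator of mitochondrial biogenesis, averaged 92.9 ± 11.5 in cKO and 118 ± 12.5 in control libraries (-0.34 ± 0.28, limma, adjusted p = 0.651, and -0.29 without control replicate 1, adjusted p = 0.693).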

How the data were processed

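Bulk RNA sequencing was done on Trizol-extracted total RNA from 3 cKO and 3 control uteri, with 1 library per animal. Per the submitters' processing notes, the tools were HISAT2, SAMtools and featureCounts, and GRCm39 is the build named. Tool versions, poly(A) selection or rRNA depletion, strand settings and the treatment of multi-matching reads are not stated there or in the labels. Of 25988 identifiers found in GENCODE vM21 (GRCm38), 25239 had identical coordinates in the table, so coordinates are read as GRCm38.

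The signal values that the authors deposited proved to be read counts scaled by 1 size factor per library: 100% of them, per column, were multiples of 1 step (tolerance 0.01 reads), so whole reads could be recovered. The table also holds the authors' group means as signal values, and their log2 fold changes, p-values and adjusted p-values in deposited columns. In 24 rows a symbol that a spreadsheet had turned into a date was restored by identifier.

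The test was limma 3.58.1 (R 4.3.3) on log2(value + 1), cKO against control, with trend and robust empirical Bayes, and Benjamini-Hochberg adjustment over the 16314 genes that passed edgeR 4.0.16 filterByExpr on the recovered reads (threshold 0.05). edgeR quasi-likelihood and DESeq2 1.42.0 were run on the recovered reads as alternatives. edgeR called 31 higher and 120 lower genes. Single library values were compared with two-sided exact permutation tests. Shares of reads have 95% Wilson intervals, which cover counting error only. Nuclear copies were found with blastn 2.17.0 (at least 95% identity over at least 100 bases). The fits were also run on simulated counts with set fold changes, whose outcome is not given here and is not relied on above. All members are named by value except the 9 transfer RNAs with too few reads; of each nuclear list up to 3 genes with the smallest p were eligible, plus Polrmt, Tfam, Lrpprc and Ppargc1a. Members and lists were chosen with earlier results of these data known. Animals are the replicates, and the p-values measure the spread between them.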

Additional observations from a re-analysis of the deposited data

How the results depend on the processing

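No mitochondrial gene was called under any of the alternatives run, whereas the count over all genes was 190 with the main settings, 93 with scaling by mitochondrial mRNA reads, 869 with DESeq2 and 43 to 464 with 1 library left out. The 464 came without control replicate 1, and 50, 71 and 43 without cKO replicates 2, 1 and 3. Scaling by all gene reads gave 12 higher and 119 lower genes and scaling by mitochondrial mRNA reads 2 higher and 91 lower, against 45 higher and 145 lower with the main settings. Scaling by mitochondrial mRNA reads moved the median log2 fold change of all genes to 0.23. With 1 library left out, the difference in the share of reads on mitochondrial genes ran from -6.30 to 1.57 points, that in the transfer RNA share from -0.0417 to 0.00108, and that in the mt-Nd6 share from -0.0635 to 0.0992 (-0.338 without genes that have a nuclear copy). The ribosomal RNA share (0.379 to 1.20) and the log2 ratio to nuclear messages (-0.93 to -0.10) kept their direction.

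Direction turned in edgeR and DESeq2 for mt-Rnr2 (-0.0670 and -0.0616), mt-Tn (-0.25 in both) and mt-Co2 (-0.12 and -0.11). It turned for mt-Tn with scaling by reads outside the mitochondrial genome (-0.0180), and with scaling by mitochondrial mRNA reads for mt-Nd1 (0.14), mt-Nd2 (0.0745), mt-Nd3 (0.13), mt-Nd4 (0.10), mt-Nd6 (0.0151) and mt-Cytb (0.0342). With 1 library left out, log2 fold changes ran from -1.46 to 0.15 for mt-Atp6, -0.65 to 0.25 for mt-Co1, -0.28 to 0.73 for mt-Co2, -0.91 to 0.78 for mt-Co3, -0.57 to 0.36 for mt-Cytb, -0.43 to 0.44 for mt-Nd1, -0.52 to 0.44 for mt-Nd2, -0.63 to 0.48 for mt-Nd3, -0.49 to 0.38 for mt-Nd4, -0.77 to 0.23 for mt-Nd5, -0.62 to 0.38 for mt-Nd6, -0.0343 to 0.85 for mt-Rnr1, -0.31 to 0.59 for mt-Rnr2, -0.87 to 0.33 for mt-Tc, -1.06 to 0.0848 for mt-Tl1, -0.34 to 0.78 for mt-Tn, -0.66 to 0.46 for mt-Tp and -1.10 to 0.0308 for mt-Ty. They kept their sign in the remaining tested genes, but ran from -2.87 to -1.33 for mt-Tw, -1.68 to -0.44 for mt-Nd4l and 0.0201 to 1.25 for mt-Atp8. The ranges were -1.23 to -0.15 for mt-Te, -1.05 to -0.21 for mt-Th, -0.99 to -0.0317 for mt-Tl2 and -1.51 to -0.55 for mt-Ts2. The cause was not tested.

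Adding the reads of the chromosome 1 pseudogenes to their mitochondrial genes, chosen after seeing the data, turned no direction, but moved mt-Nd3 to -0.26, mt-Atp6 to -0.66 and mt-Co2 to 0.091. Libraries with the same number did not deviate together across genes, with correlations of 0.0084, -0.176 and 0.0438 for replicates 1 to 3. Deviations were taken from group means of 3 libraries, so these values cannot show whether the animals were paired. A replicate block gave 183 calls.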
